A study of Mus musculus with 3 samples.

Results

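The genes described here were 9 genes of the neuroectoderm, the embryonic layer that gives rise to the nervous system, and they were chosen by name. They were the transcription factors Sox1, Sox3, Pax6, Zic1 and Neurog2, the progenitor filament gene Nes, and the neuronal cytoskeleton genes Tubb3, Dcx and Map2. The 3 deposited tables listed 27886 different genes, and all 9 chosen genes were among them. The table of the mouse embryonic stem cells (mESC) listed 6 of the 9 among its 22439 genes. Zic1, Neurog2 and Dcx had no row in it. The table of the cardiac precursor cell cultures (CPCC) listed 7 among 23371 genes, without Neurog2 and Dcx. The table of the cardiac bodies (CB) listed all 9 among 24229 genes. A table held only genes that reached at least 1 count in some cell, so a gene without a row has no value and was not set to 0.

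The study followed single cells from pluripotency towards the heart in 3 samples, 1 per kind of culture. Every cell was male and came from F1 mESC with a C57BL/6J (maternal, C57BL/6 in the labels) and a CAST/EiJ (paternal) genome, with no transgene, deletion or selection cassette described. mESC were kept in 2i medium with Lif. Aggregates of these cells were grown in medium with ascorbic acid for both other samples. CPCC were cells of the dissociated embryoid bodies that were then passaged in medium with EGF and Fgf2, and CB were aggregates that stayed in ascorbic acid and were picked because they were beating. The study used clones from several blastocysts, but neither the labels nor the column names tell which clone a cell belongs to. Markers were checked in each sample, and a cell was counted for a list when at least 3 of its genes had 10 or more counts. Markers of pluripotency were found in 203 of 215 mESC, in 100 of 175 CPCC cells and in 0 of 232 CB cells. Markers of cardiomyocytes were found in 13 mESC, 3 CPCC cells and 9 CB cells, although the CB cells are labelled as mature cardiac cells. Fibroblast markers were found in 119 CB cells. Of the 4 glial markers the tables of mESC and CPCC listed only 2, so the limit of 3 could not be met there. In CB no cell met it, but Aqp4 reached 10 counts in 15 cells, Gfap in 6 and S100b in 3.

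In the embryo, the SOXB1 factors Sox1, Sox2 and Sox3 keep cells of the neural plate and neural tube in a progenitor state, and Sox2 is also part of the pluripotency network. Proneural factors such as Neurog2 then drive progenitors out of the cell cycle and into neurons, which build their axons and dendrites on neuronal tubulin and on microtubule binding proteins such as Dcx and Map2. Several of these genes are not restricted to the nervous system. Nes is found in muscle and endothelial progenitors, Zic1 in somitic and dermal mesenchyme, and Tubb3 in some dividing cell lines.

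The median depth was 1528320 counts per cell in mESC, 1437410 in CPCC and 1397870 in CB, and the median number of genes per cell was 9532, 9252 and 6661. Cells below 10000 counts numbered 8, 1 and 9. The cells were sequenced in 3 pools of mESC, 2 of CPCC and 3 of CB, and no column name occurred in more than 1 table among 622 columns. With 1 sample per group there is no replicate check, no test was made, and the pools are given as values, not as replicates. Levels are given as CPM, the counts of a gene summed over the cells of a sample or pool and scaled to the summed counts of all genes. The 95% intervals (exact Poisson for sums, exact Clopper-Pearson for shares of cells) cover counting error only, not differences between cultures. The reads carried no molecular identifiers, so the intervals of sums are those of read counts, not of molecules. Intervals of sums also leave out the spread between cells.

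Among the transcription factors, Sox1 had its lowest level in mESC and its highest in CB, yet it was found in few cells of any culture. Sox1, a SOXB1 factor that appears with the neural plate (chr8:12395295-12400126, plus strand, GRCm38), had 0.162 CPM in mESC (0.123 to 0.210), 1.47 CPM in CPCC (1.33 to 1.62) and 4.69 CPM in CB (4.46 to 4.92). By pool, the mESC values were 0.036, 0.364 and 0.029 CPM, the CPCC values 1.75 and 1.20 CPM, and the CB values 0.802, 6.64 and 4.57 CPM. The CB pools lay above all mESC pools, while the lowest CB pool lay below both CPCC pools. Sox1 had at least 1 count in 3.72% of mESC (1.62 to 7.20), 12.0% of CPCC cells (7.58 to 17.8) and 4.31% of CB cells (2.09 to 7.78). It reached 10 counts in 2, 10 and 8 cells. In those cells the median level was 6.91, 19.0 and 87.6 CPM, and the CB cells ranged from 17.3 to 280 CPM. More CPCC cells than CB cells therefore held Sox1, and the CB cells that held it did so at a higher level.

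Sox3, the X-linked SOXB1 gene (chrX:60891366-60893430, minus strand), had 0.137 CPM in mESC (0.101 to 0.181), 0.924 CPM in CPCC (0.814 to 1.04) and 0.565 CPM in CB (0.487 to 0.651). Its pool values were 0.163, 0.102 and 0.155 CPM in mESC, 1.24 and 0.631 CPM in CPCC, and 0.096, 1.26 and 0.125 CPM in CB. A single CB pool carried most of the gene, and the other two CB pools were at the mESC level. Sox3 was found at 1 or more counts in 14.3% of CPCC cells, the widest spread of any of the 5 transcription factors, against 2.79% of mESC and 4.31% of CB cells.

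Pax6, a factor of the forebrain, eye and ventral neural tube (chr2:105668900-105697364, plus strand), had 0.609 CPM in mESC (0.530 to 0.697), 2.54 CPM in CPCC (2.36 to 2.74) and 5.19 CPM in CB (4.95 to 5.44). Of the CB counts, 68.6% came from 1 cell of pool 3, which had 1206 Pax6 counts among 132602 counts in all and only 1025 genes. Without cells under 100000 counts or 2000 genes, which removes that cell, the log2 ratio of CB to CPCC turned from 0.81 to -0.44. Pax6 was found at 10 or more counts in 5 mESC, 16 CPCC cells and 7 CB cells, and 13 of the 16 CPCC cells were in pool 1.

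Zic1, a zinc finger factor of the dorsal neural tube, the cerebellum and the somites (chr9:91358058-91365810, minus strand), had 0.098 CPM in CPCC (0.064 to 0.142) and 8.62 CPM in CB (8.31 to 8.94). The CB pools stood at 0.192, 0.015 and 20.2 CPM. Pool 3 therefore held nearly all of it, and without pool 3 the log2 ratio of CB to CPCC went from 3.13 to -0.03. Zic1 was found at 10 or more counts in 1 CPCC cell and in 11 CB cells, 10 of them in pool 3. The bases of the RefSeq promoter window that lie before the gene are shown because the CB pools differed so widely in this gene (GRCm38.p6, chr9:91365811-91366018, minus strand, 5′ to 3′, with each CG dinucleotide in capitals).
Zic1: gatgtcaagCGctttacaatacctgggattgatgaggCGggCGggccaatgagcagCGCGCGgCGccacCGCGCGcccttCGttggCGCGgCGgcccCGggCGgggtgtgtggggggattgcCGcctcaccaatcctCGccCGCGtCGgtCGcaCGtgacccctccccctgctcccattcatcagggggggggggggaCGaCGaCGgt
The 208 bases held 26 CG dinucleotides. In the whole window of 300 bases there were 31, against a median of 7 over 32851 RefSeq promoters. RefSeq windows were matched for 8 of the 9 genes, all but Sox3.

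Neurog2, the proneural factor (chr3:127633135-127635631, plus strand), had a row only in the CB table, with 0.724 CPM (0.637 to 0.821). Its counts lay in pools 1 and 3, at 1.17 and 1.20 CPM, with 0 in pool 2, where 3 counts would be 0.023 CPM. It reached 10 counts in 2 cells, with 171 and 73 counts.

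Nes was the most widely found of the genes in CB and was highest in CPCC. Nes encodes nestin, the intermediate filament of neural and many other progenitors (chr3:87971078-87980451, plus strand), and it had 11.2 CPM in mESC (10.9 to 11.6), 50.3 CPM in CPCC (49.5 to 51.2) and 23.2 CPM in CB (22.7 to 23.7). The pool values were 14.0, 7.65 and 13.0 CPM in mESC, 29.9 and 69.4 CPM in CPCC, and 36.8, 23.5 and 17.0 CPM in CB. Pools of mESC overlapped neither those of CPCC nor those of CB, whereas CPCC and CB overlapped. Nes was found at 10 or more counts in 38.1% of mESC, 42.9% of CPCC cells and 22.4% of CB cells, and the median level in those cells was 25.4, 63.2 and 63.5 CPM. The share of cells and the level per cell thus did not run in parallel, since CB had the lowest share and CPCC and CB had nearly the same level. The bases of the RefSeq window before the gene are shown as those of the widest found gene of CB (GRCm38.p6, chr3:87970843-87971077, plus strand, 5′ to 3′, CG in capitals).
Nes: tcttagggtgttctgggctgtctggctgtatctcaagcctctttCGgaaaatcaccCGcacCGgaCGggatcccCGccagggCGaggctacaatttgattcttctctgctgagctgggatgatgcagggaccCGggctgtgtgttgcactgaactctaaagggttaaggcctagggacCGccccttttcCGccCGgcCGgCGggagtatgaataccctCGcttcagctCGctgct
These 235 bases held 14 CG dinucleotides, and the whole window held 18.

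Tubb3, the neuronal class of beta tubulin (chr8:123411424-123422015, plus strand), was the gene with the highest level per length of the 9 in all 3 samples. Per kilobase of exon it reached 18.7, 38.9 and 6.25 CPM in mESC, CPCC and CB, and in CB Nes followed with 3.62 CPM per kilobase. Summed, Tubb3 had 34.9 CPM in mESC (34.3 to 35.6), 72.8 CPM in CPCC (71.8 to 73.8) and 11.7 CPM in CB (11.3 to 12.0). The pool values were 55.7, 28.6 and 21.2 CPM in mESC, 87.9 and 58.6 CPM in CPCC, and 11.5, 9.10 and 14.1 CPM in CB, so the pools of the 3 samples did not overlap in any pair. At 10 or more counts it was found in 52.1% of mESC, 57.1% of CPCC cells and 6.47% of CB cells. A single CB cell gave 50.9% of the Tubb3 counts of that sample. The gene lies on the same strand within the span of Gm20388, with which it shared no stretch of 50 bases in exons, and Gm20388 stood at 17.5, 28.8 and 34.9 CPM.

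Dcx, a microtubule binding protein of migrating neurons (chrX:143855842-143933311, minus strand), had a row only in CB, and all of its 643 counts came from 1 cell of pool 3. That made 1.90 CPM in CB (1.76 to 2.05). In pools 1 and 2 it had 0 counts, where 3 counts would be 0.048 and 0.023 CPM. Dcx was also the gene whose promoter windows stood apart from the others. For that reason the bases before the gene in the more upstream of its windows are shown (GRCm38.p6, chrX:143933312-143933469, minus strand, 5′ to 3′, CG in capitals).
Dcx: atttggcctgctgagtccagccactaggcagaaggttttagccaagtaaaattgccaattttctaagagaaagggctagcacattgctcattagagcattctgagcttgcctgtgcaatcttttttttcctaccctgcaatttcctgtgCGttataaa
The 158 bases held 1 CG. Each Dcx window held 3, against 10 to 37 in the windows of the other 7 matched genes, and 23.3% of all promoters held fewer than 3. The letters TATAAA, searched on both strands, occurred in 13.6% of all promoters and among the matched genes only in Dcx, at the right end of the bases shown.

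Map2, a microtubule associated protein of dendrites (chr1:66175273-66442583, plus strand), had 0.467 CPM in mESC (0.398 to 0.544), 0.355 CPM in CPCC (0.288 to 0.433) and 6.63 CPM in CB (6.36 to 6.92). The CB pools stood at 18.1, 2.14 and 5.78 CPM, above every pool of mESC (0.261 to 0.561 CPM) and of CPCC (0.133 and 0.592 CPM). At 10 or more counts it was found in 6 mESC, 2 CPCC cells and 14 CB cells, and 31.0% of the CB counts came from 1 cell of pool 1.

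**Figure D1:**
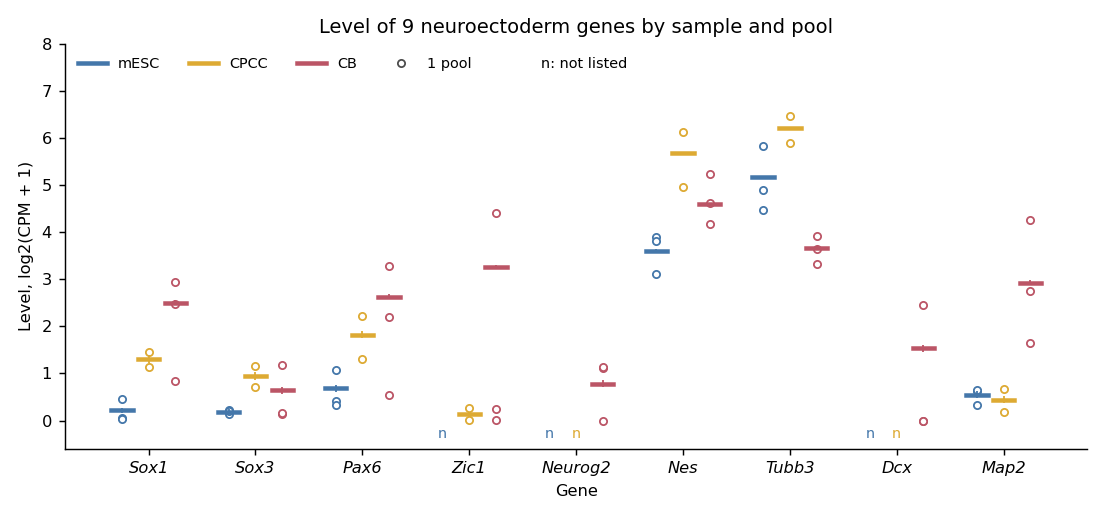
The vertical axis gives the level of each gene as log2(CPM + 1), with a bar for each sample (its thin line is the 95% Poisson interval), a circle for each pool and n where a table had no row for the gene. The Tubb3 bar of CB, at 11.7 CPM, lies below those of mESC and CPCC, and the circles of Zic1 and Dcx in CB show 1 pool far above the other two.

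**Figure D2:**
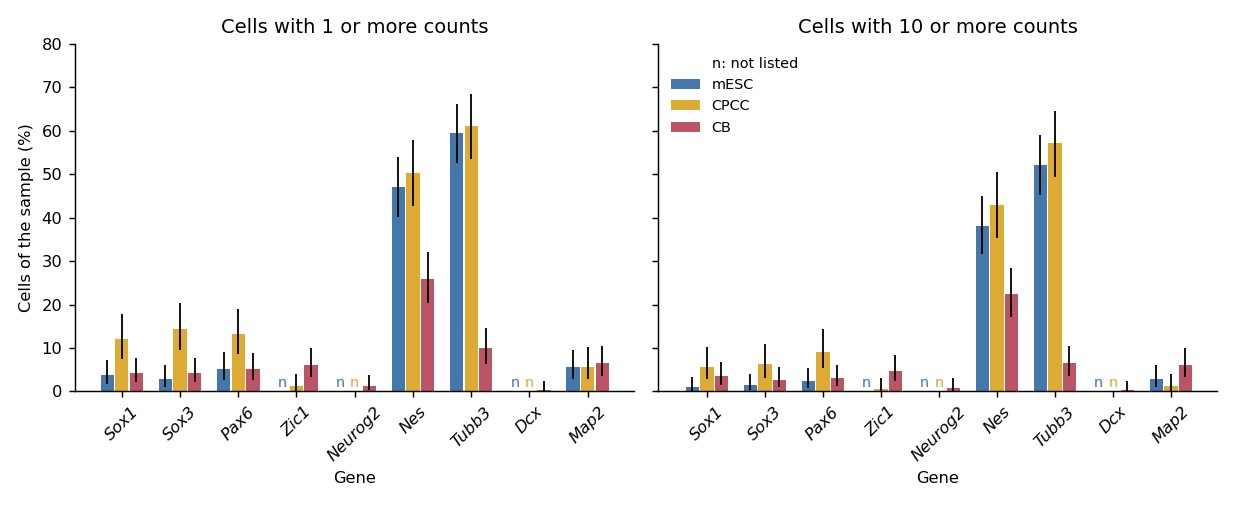
The bars give the percentage of cells of each sample with 1 or more counts (left) and 10 or more counts (right) of each gene, with 95% Clopper-Pearson intervals, and n marks a gene without a row. Tubb3 went from 59.5% of mESC and 61.1% of CPCC cells to 9.91% of CB cells on the left, while each of the 5 transcription factors stayed below 15% of cells.

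The design implies 3 comparisons, which were made as log2 ratios of (CPM + 1). This scale understates the change of genes with low levels, which most of the 9 are. Of the 6 genes with a row in both tables, 4 were at least 2-fold higher in CPCC than in mESC and 0 were 2-fold lower, where 13.4% of all genes were that much higher and 6.38% that much lower. The 4 were Nes with a log2 ratio of 2.07 (2.01 to 2.14), Pax6 with 1.14 (0.98 to 1.29), Sox1 with 1.09 (0.94 to 1.22) and Tubb3 with 1.04 (0.99 to 1.08). Sox3 stood at 0.76 and Map2 at -0.11. The median of the 6 was 1.06, against -0.02 over 20272 genes. The pools did not overlap for any of them but Map2. Nes was more than 2-fold higher in all 13 alternatives computed, between 1.34 and 2.53, and Tubb3 in 8 of 13. Without pool 1 of CPCC, Pax6 stood at 0.62, Sox1 at 0.92 and Tubb3 at 0.73, so only Nes kept the 2-fold difference. Tubb3 also lost it without pool 2 (0.88) or pool 3 (0.82) of mESC.

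From mESC to CB, 3 of the 6 genes were at least 2-fold higher and 1 was at least 2-fold lower, against 24.9% and 11.3% of all genes. Map2 had a log2 ratio of 2.38, Sox1 of 2.29 and Pax6 of 1.94, and Tubb3 of -1.50. Nes stood at 0.99 and Sox3 at 0.46. The median was 1.47, against 0.13 over 19855 genes. With the filter on counts and genes per cell, which removes the cell with most Pax6, Pax6 stood at 0.71, and with cells weighted equally, which gives that cell more weight, at 4.52. Pools overlapped for Pax6 and Sox3. For Pax6 they stood at 0.465, 3.60 and 8.71 CPM in CB and 0.261 to 1.10 CPM in mESC. Without pool 1 of CB, Map2 stood at 1.78 against mESC and at 1.89 against CPCC. Tubb3 was more than 2-fold lower in all 14 alternatives, between -2.33 and -1.05. TMM scaling brought the median of genes with at least 5 CPM from 0.27 to 0.01, and for CB against CPCC from 0.18 to -0.04. The ratios given are on the scale of library totals.

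Between CB and CPCC, 3 of 7 genes were at least 2-fold higher in CB and 2 at least 2-fold lower, against 17.0% and 7.54% of all genes. The higher genes were Zic1 with a log2 ratio of 3.13, Map2 with 2.49 and Sox1 with 1.20. The lower genes were Tubb3 with -2.54 and Nes with -1.08. Nes lost the 2-fold difference without pool 2 of CPCC (-0.35) or pool 3 of CB (-0.83), and Sox1 without pool 2 of CB (0.85). So did Zic1 without pool 3 of CB (-0.03). Of the alternatives computed, Sox1 passed 2-fold in 9 of 12 and Zic1 in 11 of 13. Pax6 stood at 0.81 and Sox3 at -0.30. The median was 0.81, against 0.14 over 20995 genes. It turned to -0.31 with the filter on counts and genes per cell, to -0.27 without the top cell of each gene and to -0.026 without pool 3 of CB. Only for Tubb3 and Map2 did the pools of CB and CPCC not overlap. The comparisons share their samples, so the 3 sets of ratios are not independent of each other.

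Within CPCC, Nes was found mostly in cells without pluripotency markers, and Sox3 and Pax6 mostly in cells with them. The 100 cells with pluripotency markers held Nes at 10 or more counts in 26.0% of cases (17.7 to 35.7), and the 75 other cells in 65.3% (53.5 to 76.0). In cells thinned to 430000 counts the shares were 12.1% and 66.7%. The split was seen within each pool, with 11 of 63 against 13 of 16 cells in pool 1 and 15 of 37 against 36 of 59 in pool 2. Nes was found in 94.4% of the 36 cells with fibroblast markers (81.3 to 99.3), at 136 CPM, and in 87.7% of the 57 cells with smooth muscle markers (76.3 to 94.9), at 94.7 CPM, compared with 9.14 CPM in the cells with pluripotency markers. A cell could be counted for several lists. Of the cells with Pax6, 14 of 16 had pluripotency markers, as had 10 of 11 with Sox3 and 7 of 10 with Sox1. These cells also lay mostly in pool 1, where pluripotency markers were more frequent. Pax6 was in 12 of 63 cells with the markers and 1 of 16 without them in pool 1, and in 2 of 37 and 1 of 59 in pool 2. Sox3 was in 7 of 63 and 1 of 16 in pool 1, and in 3 of 37 and 0 of 59 in pool 2. Even so, 8 of the 10 Sox1 cells held Nes, compared with 4 of the 16 Pax6 cells. Tubb3 was found in 65.0% of the cells with pluripotency markers and in 46.7% of the others, and it followed the pools, with 65 of 79 cells in pool 1 and 35 of 96 in pool 2. The summed level of the 7 pluripotency markers differed between the pools, at 5451 CPM in the first and 1173 CPM in the second, and the part of this difference in the Tubb3 result was not tested.

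Within CB, Zic1 was found mostly in cells with fibroblast markers and Sox1 in none of these. Sox1 reached 10 counts in 0 of the 119 cells with fibroblast markers, where a limit of 3 cells would be a share of 2.52%, and in 8 of the 113 others (7.08%, 3.11 to 13.5). Of its 8 cells 5 were in pool 2, where only 15 of 78 cells had fibroblast markers, with 1 in pool 1 and 2 in pool 3. Zic1 was in 10 of the 119 (8.40%, 4.10 to 14.9) and in 1 of the 113 (0.885%). Of the cells with fibroblast markers, Zic1 was found in 1 of 50 in pool 1, 0 of 15 in pool 2 and 9 of 54 in pool 3. Pax6 was in 1 and 6 cells, Map2 in 6 and 8, and Tubb3 in 9 and 6. Nes was in 26.9% of the cells with fibroblast markers and 17.7% of the others, with overlapping intervals.

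**Figure D3:**
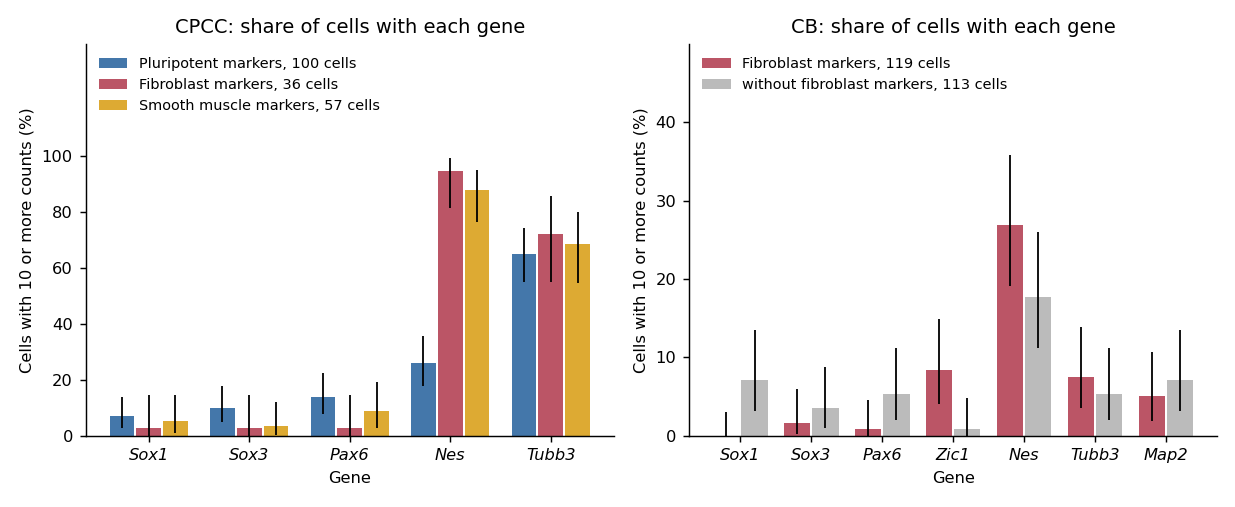
The bars give the percentage of cells with 10 or more counts of each gene in CPCC (left, cells with pluripotency, fibroblast or smooth muscle markers, which may overlap) and in CB (right, cells with and without fibroblast markers), with 95% Clopper-Pearson intervals. Nes reached 94.4% and 87.7% of the cells with fibroblast and smooth muscle markers of CPCC, and in CB Sox1 was in 0 of the 119 cells with fibroblast markers and Zic1 in 10.

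The 11 Zic1 cells of CB held 1062, 621, 340, 193, 157, 142, 135, 127, 90.0, 34 and 12 counts, the last in pool 1 and the others in pool 3. In 10 of them, 3 to 7 of the 7 fibroblast markers reached 10 counts, and the collagen gene Col3a1 had between 1169 and 35142 counts. The exception was the cell with 340 Zic1 counts. It had no fibroblast marker at 10 counts, but had Sox1 with 99 counts, Pax6 with 45, Map2 with 184, Sox2 with 69 and the radial glia fatty acid binding protein Fabp7 with 3394. It also had the endothelial receptor gene Kdr with 227 counts and Acta2, the smooth muscle actin gene, with 158, and 2 endothelial markers reached 10 counts. The cell with most Zic1 had 1976 counts of Otx2, a forebrain and midbrain factor, and 6 fibroblast markers. Zic4, which overlaps Zic1 on the other strand, reached 10 counts in 4 of the 11 cells, with 325, 61, 38 and 12 counts. The use of strand in the counting is not given in the sources used here, so reads of Zic1 and Zic4 that overlap cannot be told apart. The CPCC cell with Zic1 had 26 counts of it, with 339 of Nes, 182 of Tubb3 and 24123 of Acta2.

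Co-detection was described in cells with 10 or more counts of each gene. All 8 Sox1 cells of CB also held Sox2, which was found in 65 of the 232 CB cells (28.0%). Otx2 was in 6 of the 8, Tubb3 in 4, Pax6 in 3 and Sox3 in 2. Independent detection within each pool would give 1.74, 0.53, 0.32 and 0.34 of these cells, and 2.20 for Sox2. Sox2 was also in 5 of 7 Pax6 cells, 4 of 6 Sox3 cells, 9 of 14 Map2 cells, 8 of 15 Tubb3 cells and both Neurog2 cells, compared with 2 of 11 Zic1 cells and 13 of 52 Nes cells. In CPCC, where Sox2 was in 88 of 175 cells, 8 of 10 Sox1 cells and 14 of 16 Pax6 cells held it, and 24 of 75 Nes cells. Sox1 and Sox3 shared 4 CPCC cells, Sox1 and Pax6 shared 2, and Sox3 and Pax6 shared 0. Detection of the genes independently of each other within each pool would give 0.73, 1.11 and 1.41 shared cells, and no test was made of counts this small. For Sox2 it would give 5.76 of the Sox1 cells and 10.9 of the Pax6 cells. In mESC, all 112 Tubb3 cells and 81 of 82 Nes cells held the pluripotency factor Nanog, which was in 199 of the 215 mESC.

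Cells with several of the genes were counted next. At 1 or more counts, at least 1 of the genes was found in 75.3% of mESC, 81.1% of CPCC cells and 42.2% of CB cells, mostly Tubb3 and Nes. At least 3 of them were found in 7.44% of mESC (4.31 to 11.8), 16.6% of CPCC cells (11.4 to 22.9) and 4.74% of CB cells (2.39 to 8.33). With 10 or more counts required of each gene, the cells with at least 3 genes numbered 5 in mESC, 11 in CPCC and 10 in CB, or 2.33%, 6.29% and 4.31%. The number of genes that a table listed limits these shares, since 6, 7 and 9 could be found. Of the 5 transcription factors alone, at least 1 was found in 9, 32 and 28 cells, at least 2 in 1, 6 and 4 cells, and at least 3 in 0, 0 and 2 cells.

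The 10 CB cells with at least 3 genes held 5.02% of the CB counts and 92.5% of the Sox1 counts, 69.6% of Tubb3 and 51.6% of Map2, but 11.7% of Zic1 and 6.67% of Nes. They had been chosen on these genes, so these shares are a description. Among genes that did not enter the choice, Sox2 was in 9 of the 10 and in 25.2% of the 222 other CB cells. The forebrain factors Six3 and Lhx2 were each in 6 of the 10, against 3.15% and 4.50% of the others. Fabp7 was in 5 against 2.25%, Otx2 in 6 against 14.0%, and the neural cadherin gene Cdh2 in 9 against 22.1%. Of 39 listed genes of 3 neural lists, a median of 13 (7 to 21) reached 10 counts in the 10 cells and 4 in the others. After thinning the medians were 11.5 and 4. In CPCC the cells with at least 3 genes had a median of 13 of 40 listed neural genes, against 9 in the other cells. In mESC the medians were 11 and 8 of 34 listed genes. The 10 cells were deeper, with a median of 1786530 counts against 1374260. Fibroblast markers were found in 2 of the 10 and in 52.7% of the others, and proliferation markers in 7 and in 28.8%.

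The 10 cells were not alike. A pool 2 cell had Sox1 at 58 counts, Sox3 at 14, Pax6 at 11, Nes at 10 and Tubb3 at 197, the most genes in any cell, and also the endothelial receptor gene Kdr at 629. Another cell of pool 2 had Sox1 at 215, Map2 at 90 and all 6 endothelial markers. A pool 1 cell had Neurog2 at 73, Nes at 179, Map2 at 235, Sox2 at 107, Otx2 at 103 and all 6 cardiomyocyte markers. The cell with the most Sox1, in pool 3, had 559 counts of it, with Map2 at 331, Nes at 41 and Sox2 at 365. The study inspected the capture chambers under a microscope, but the tables do not mark those that held several cells, and the part of such chambers in cells with markers of several lists was not tested. The other Neurog2 cell, with 171 counts, held none of the other 8 genes but had Sox2 at 301, Otx2 at 294, Fabp7 at 570 and the neuronal RNA binding protein gene Elavl4 at 480.

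**Figure D4:**
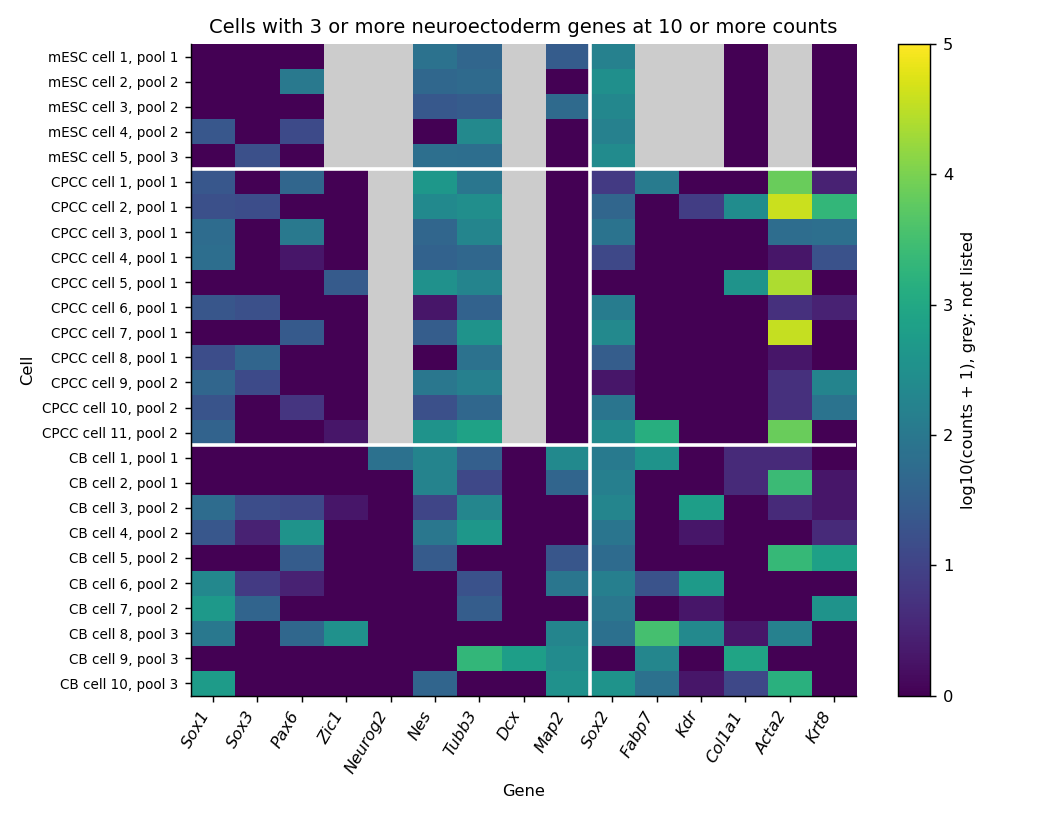
Rows are the 5 mESC, 11 CPCC and 10 CB cells with at least 3 of the 9 genes at 10 or more counts, columns are the 9 genes and, right of the white line, 6 genes of other lists, and colour gives log10(counts + 1) with grey where a table had no row. The CPCC rows share Tubb3 and mostly Nes, and the CB rows differ from each other, with Sox2 in 9 of 10.

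The CB cell with Dcx held most of the CB counts of 3 of the 13 listed genes of neuronal structure, Ina, Nefm and Nefl. It had 1189740 counts in 6583 genes. Dcx had 643 counts, Tubb3 2011 and Map2 256, while Sox1, Sox3, Pax6, Zic1, Neurog2, Nes, Sox2 and Otx2 had 0. It held 99.7% of all CB counts of Ina, 93.5% of Nefm and 86.4% of Nefl, which encode subunits of neurofilaments, with 976, 743 and 185 counts. It also held 92.5% of the counts of the zinc finger gene Myt1 and 88.1% of those of Elavl3, both genes of young neurons, 25.4% of those of the microtubule regulator Stmn2 and 23.7% of those of Mapt, which encodes tau. The other 8 structure genes had smaller shares in it, from 12.2% for Tubb2b and 12.0% for Crmp1 to 1.50% for Dpysl3 and 0 for Nrcam and L1cam. Of the 39 listed neural genes, 21 reached 10 counts. Fibroblast markers were also present, with 6 of 7 at 10 counts or more, among them Col1a2 at 4284, Dcn at 3112 and Pdgfra at 866 counts, and Postn at 0. Of the neural crest list, Tfap2a had 111 counts, Tfap2b 94 and Pax3 11. Whether the chamber held more than 1 cell was not tested. With the top Tubb3 cell of each sample left out, which in CB is this cell, the log2 ratio of Tubb3 in CB against mESC was -2.33.

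**Figure D5:**
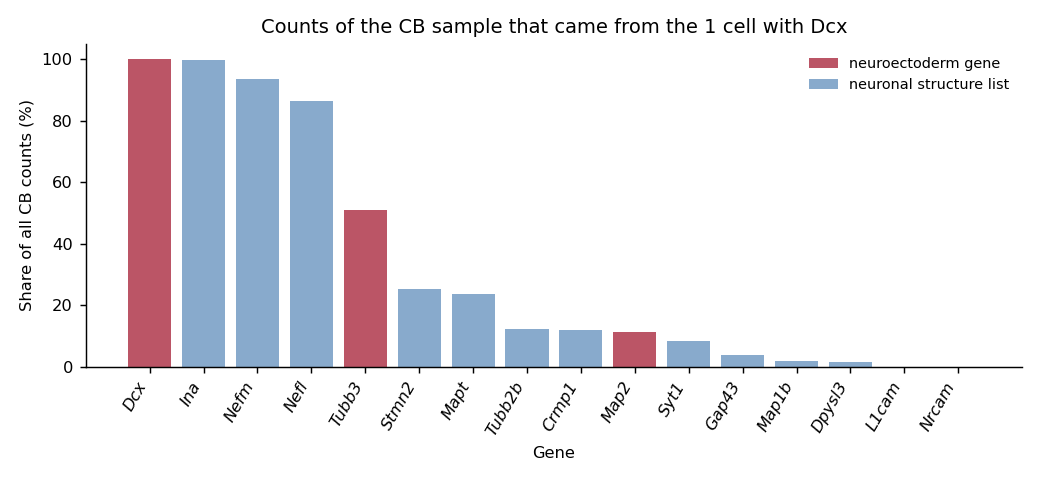
The bars give the percentage of all CB counts of a gene that came from the cell with Dcx, for Dcx, Tubb3, Map2 and the listed genes of neuronal structure. Dcx, Ina, Nefm and Nefl came mostly from this cell, Tubb3 to 50.9% and Map2 to 11.4%, and the other structure genes by 25.4% or less.

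Other neural genes were counted in 3 lists of 45 genes. Of 13 genes of neuronal structure listed in both tables, 8 were at least 2-fold higher and 1 was 2-fold lower in CPCC than in mESC, with a median log2 ratio of 1.91, beside 13.4% and 6.38% of all genes and a median of -0.02. For 7 proneural and early neuronal genes the numbers were 3 and 0 (median 0.96), and for 13 neural progenitor genes 3 and 2 (median -0.39). The highest were Gap43 with 4.99, Crmp1 with 4.09 and Dpysl3 with 4.03, genes of growing axons, and the lowest were Mapt with -2.16, Sox2 with -1.54 and the RNA binding protein gene Msi1 with -1.21. Markers of other cell types differed more in this comparison, with medians of 6.05 for 3 fibroblast and 6.63 for 3 smooth muscle markers, all 2-fold higher, and their part in the neuronal structure list was not tested. In CB against mESC, 7 progenitor genes were higher and 3 lower of 14 (median 0.67), 3 and 0 of 7 proneural genes (0.27), and 6 and 4 of 12 structure genes (0.48), beside 24.9% and 11.3% of all genes (0.13). Sox11 led with 5.72, followed by Gap43 with 5.20 and Sox4 with 3.68, and Stmn2 with -3.44 and Zic5 with -3.29 were among the lowest. In CB against CPCC, 1 structure gene was higher and 5 were lower of 13 (median -0.61), 3 and 2 of 8 proneural genes (-0.28), and 7 and 4 of 16 progenitor genes (0.35), beside 17.0% and 7.54% of all genes (0.14). The brain progenitor genes Otx1 with 3.23, Lhx2 with 2.86 and Sox21 with 2.54 were highest, and Nefl with -5.06 and Stmn2 with -3.49 were among the lowest. Like Tubb3, Stmn2 was lowest in CB, with 208 CPM in mESC, 215 in CPCC and 18.2 in CB, and it was found at 10 or more counts in 192 of 215 mESC.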

How the data were processed

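Single cells were captured on Fluidigm C1 chips and prepared with the SMART-Seq method. The authors aligned each library to GRCm38 (mm10) with STAR 2.7 in Partek Flow and counted reads per gene. The deposited values were estimated counts in the mESC and CB tables and whole counts in the CPCC table, which the authors had not scaled. The counting model and use of strand are not given in the sources used here. The files assigned 2 further CPCC columns to no cell, and these held no values and were not used. Its 208 rows without a gene name and 23 with a name turned into a date, which held 0.139% of its counts, were left out.

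Here, counts were summed per sample or pool, scaled to CPM and compared as log2(CPM + 1). No test was made, because each group had 1 sample. All 9 genes are named, with the 3 highest and 3 lowest genes of 3 neural lists per comparison and, as closing observations, the 10 genes that most often accompany cells with at least 3 of the 9. Some genes that this rule selects are not reported here. The 9 genes and all lists were chosen with earlier results of these data known. Scaling with edgeR 4.0.16 and DESeq2 1.42.0, other pseudocounts, cell filters, thinning and the omission of pools or top cells were tried. The log2 ratios of summed counts were tested on simulated sums with known fold changes, and the intervals and the thinning were not. Splits of cells by markers and descriptions of single cells were chosen after seeing the data. Gene positions are from GENCODE and promoters from RefSeq (GRCm38.p6).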

Additional observations from a re-analysis of the deposited data

How the results depend on the processing

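The median log2 ratio of the genes in CPCC against mESC (1.06) became 2.005 with a pseudocount of 0.1 CPM and 0.21 with 10 CPM. With only genes of at least 5 CPM it was 1.55, from Nes and Tubb3 alone. It was 0.67 to 1.28 when pools were left out in turn. For CB against mESC (1.47) it was 1.26 with TMM and 1.27 with DESeq2 factors, 2.19 and 0.52 with the pseudocounts, 0.85 with the cell filter, 0.98 without the top cell of each gene and 1.20 to 1.50 without a pool. For CB against CPCC (0.81) it was 0.63 and 0.61 with the factors, 1.09 with equal weight per cell, 1.004 and 0.28 with the pseudocounts, -0.31 with the cell filter, -0.27 without the top cell and -0.026 to 1.32 without a pool. In the last comparison the middle gene is Pax6, whose CB counts lay mostly in 1 cell that the filter removes. The share of cells with at least 3 genes was 2.33% in place of 7.44% in mESC at 5 or 10 counts, and in CPCC 8.57% at 5 and 6.29% at 10 counts in place of 16.6%. Without a pool it was 5.80% to 8.38% in mESC and 14.6% to 19.0% in CPCC, and for CB it moved under no alternative by more than its interval (3.25% to 5.52%). Of the genes past 2-fold, Zic1 turned sign in CB against CPCC without pool 3 of CB (-0.034, against up to 3.78 without another pool). Of the genes within 2-fold, Map2 turned in CPCC against mESC without pool 2 of CPCC (0.12), Sox3 in CB against mESC without pool 2 of CB (-0.026), and Pax6 in CB against CPCC with the cell filter (-0.44) and without the top cell (-0.27). Beside Zic1, 177 alternative values of single genes moved beyond the counting interval and 214 did not. No paired analysis was possible because each group had 1 sample and its pools are not labelled as replicates. Counts of few cells limit the precision for the transcription factors.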

Other observations

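The genes found most often in the CB cells that had at least 3 of the 9 neuroectoderm genes, relative to other CB cells, were described without a test, since the cells were chosen on measured values. At 10 or more counts, Uchl1, a deubiquitinase abundant in neurons, was in all 10 of these cells and in 20.7% of the 222 others, the kinase gene Dck in 90.0% and 19.4%, and the long noncoding RNA gene Rmst, known as a partner of Sox2, in 70.0% and 3.60% (40.0% and 3.50% after thinning). Epdr1, Cdh2, Dexi, Ppih, Bex2, Gfer and Sox2 completed the list of 10. After thinning, Dck, Sox2, Bex2 and Uchl1 stayed among the 10 leading genes, and Sall2, B3gnt5, Hells, Mbip, U2af2 and Dtna took the other places. In the corresponding 11 CPCC cells the leading genes included Pidd1, Dipk1a, Tcirg1, Smarcd3, Pbx4, Rabl2, Zfp423, Raet1e and Tradd, of which Pidd1 and Raet1e stayed after thinning.

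Over the 8 pools, the levels most like those of each gene were sought among 11689 genes by Pearson's r, given with no p because pools of a sample share their culture. No background value was computed for them, so they are a ranking only. Sox1 was most like Bbs7 (0.98), Adgrv1 (0.98) and Lrif1 (0.97), and Sox3 most like Sox7 (0.97), Lin28a (0.94) and Tdg-ps (0.93). Pax6 was most like Cyfip2 (0.93), Trappc2l (0.92) and Cyb5a (0.92), and Nes most like Chmp6 (0.97), Adam9 (0.95) and Gm12166 (0.94). Tubb3 was most like Kpna1 (0.97), Slc20a1 (0.97) and Lefty1 (0.96), and Map2 most like Ovol1 (0.98), Sned1 (0.98) and Vps4b (0.98).

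The transcript Sox1ot, which overlaps Sox1 on the same strand, had 148 counts in 3 CPCC cells and 10 counts in CB.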
